A study of Mus musculus with 15 samples.

Results

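The histone acetyltransferase and deacetylase genes around Kat6b were followed through 6 lists of ChIP-seq peaks, 1 list for each of 2 histone marks in each of 3 mouse pluripotent states. The 9 genes, of 22350 protein-coding genes on chromosomes 1 to 19 and X, were the acetyltransferases Kat6b, Kat6a, Ep300, Crebbp, Kat2a and Kat2b and the deacetylases Hdac1, Hdac2 and Hdac3. Kat6b was chosen from the study's own list of genes that mark ESCs, which was defined from the same histone marks together with accessibility and expression, so its values here describe that choice and carry no test. The other 8 genes were chosen by name, with earlier results of these data known. Each gene was read over a window made of its span in the GENCODE M1 annotation of mm9, where Kat6b is listed as Myst4 and Kat6a as Myst3, and 10 kb on each side.

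All cells were of the 129SV strain and derived from the J1 mouse embryonic stem cell line, so each state is 1 line. ESCs were grown in serum medium with leukemia inhibitory factor and the inhibitors CHIR99021 and PD0325901, on inactive fibroblast feeders or gelatin. D-EPSCs were ESCs converted in a serum-free medium with leukemia inhibitory factor, CHIR99021, dimethindene maleate and minocycline hydrochloride. L-EPSCs were converted in a serum replacement medium with leukemia inhibitory factor, CHIR99021, PD0325901, A-419259, XAV939, JNK inhibitor VIII and SB203580. Both EPSC states were kept without feeders for several passages before chromatin was taken. Leukemia inhibitory factor and CHIR99021 were thus common to all 3 states, and the base medium differed together with the inhibitors. For each state the labels give 2 samples for H3K27ac, 2 for H3K4me1 and 1 input sample, but the deposited peaks form 1 list per mark and state, so no spread between samples could be computed and no difference was tested. The lists hold positions alone, and the depth behind them is unknown.

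Acetyltransferases place acetyl groups on histone lysines, and deacetylases take them off. Ep300 and Crebbp are the enzymes known for H3K27 acetylation at enhancers and promoters, Kat2a and Kat2b act mainly on other lysines of histone H3 as part of larger coactivator assemblies, and Kat6a and Kat6b work in a complex with Brpf scaffold proteins. H3K27ac marks active promoters and enhancers, while H3K4me1 marks enhancers whether or not they are active and usually flanks an active start site rather than covering it. Hdac1 and Hdac2 sit in the Sin3, NuRD and CoREST corepressor complexes, and Hdac3 sits in the NCoR complex.

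The H3K27ac lists differed strongly in length, which bears on every comparison given here. They covered 107.4, 44.41 and 34.29 Mb in the respective ESC, D-EPSC and L-EPSC lists, with 64342, 32782 and 26966 peaks. The H3K4me1 lists were closer to each other, at 221.1, 187.5 and 173.1 Mb. As a check of cell type, 4 of 5 pluripotency genes (Pou5f1, Sox2, Nanog and Zfp42, but not Esrrb) had an H3K27ac peak within 1 kb of the start site in each of the 3 states. In no state did any of 6 fibroblast genes (Col1a1, Col1a2, Col3a1, Thy1, Twist1 and Prrx1) have one. These H3K27ac counts were the same in every state, so they do not tell the 3 states apart. H3K4me1 lay within 1 kb of the start site at 5 of those 6 fibroblast genes in every state. At the 5 pluripotency genes it did so at 1, 4 and 4 in the respective ESC, D-EPSC and L-EPSC lists. Over all genes in the same order, H3K4me1 lay there at 57.5%, 67.1% and 68.0%, and H3K27ac at 35.7%, 35.3% and 28.8%.

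Promoters are shown first because the first base of the gene was acetylated in all 3 states at 7 of the 9 genes, while most acetylated regions of the windows were in ESCs only. Each promoter is the 250 bases that end just before the annotated start site, read from the mm9 genome and written along the gene, with matches to the GC box GGGCGG on either strand in capitals. The start site is the 5′ end of the gene, and at Kat2b it lies 110 bp before the first start of a protein-coding transcript. Kat6b (chr14:22318826-22319075, plus strand) and Kat2b (chr17:53705936-53706185, plus strand) had H3K27ac at the first base of the gene in all 3 states, and Crebbp (chr16:4213405-4213654, minus strand) had it there in none.
Kat6b promoter: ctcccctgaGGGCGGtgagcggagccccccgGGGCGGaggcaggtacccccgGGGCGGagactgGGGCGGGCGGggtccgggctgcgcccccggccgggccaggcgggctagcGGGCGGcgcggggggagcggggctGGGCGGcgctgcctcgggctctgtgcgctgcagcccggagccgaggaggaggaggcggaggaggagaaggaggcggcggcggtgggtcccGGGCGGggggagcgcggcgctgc
Kat2b promoter: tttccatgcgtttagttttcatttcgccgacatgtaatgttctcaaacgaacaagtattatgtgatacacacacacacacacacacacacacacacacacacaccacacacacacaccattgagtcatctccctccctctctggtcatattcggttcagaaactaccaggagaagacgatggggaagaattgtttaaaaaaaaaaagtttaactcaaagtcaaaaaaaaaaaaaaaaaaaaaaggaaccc
Crebbp promoter: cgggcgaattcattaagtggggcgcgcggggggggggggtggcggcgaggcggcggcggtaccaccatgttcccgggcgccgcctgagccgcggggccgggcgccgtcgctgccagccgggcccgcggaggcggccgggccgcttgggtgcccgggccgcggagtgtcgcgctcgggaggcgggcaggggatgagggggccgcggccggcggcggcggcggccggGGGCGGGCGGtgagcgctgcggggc

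The GC box, a short element bound by Sp family factors, was found 8 times in the Kat6b promoter, 3 times in that of Ep300 and 2 times in that of Crebbp, counting overlapping matches separately. It was found 1 time each in the promoters of Hdac1, Hdac2 and Hdac3 and in neither Kat2a nor Kat2b. Of all 22350 promoters, 39.6% held at least 1 match. The other elements searched on both strands were TCAAGGTCA (the Esrrb and Nr5a2 element), the octamer ATTTGCAT and the cyclic AMP response element TGACGTCA. None of these promoters held a match to them, and they occurred in 0.331%, 1.62% and 1.91% of all promoters. The 500 bases on either side of the start site had a GC content of 72.5% at Kat6b, 77.1% at Crebbp and 57.1% at Kat2b, beside a median of 54.7% over all genes.

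Kat6b (ENSMUSG00000021767.8), at chr14:22319076-22491354 on the plus strand, had the lowest ratio of acetylated bases between L-EPSCs and ESCs among the 9 genes, with Crebbp close to it. Of its 192.3-kb window, H3K27ac covered 55.28 kb in 40 peaks in ESCs, 16.02 kb in 10 peaks in D-EPSCs, and 7.942 kb in 9 peaks in L-EPSCs. This was 3.45-fold fewer bases in D-EPSCs than in ESCs and 6.96-fold fewer in L-EPSCs, with log2 ratios of −1.79 and −2.80. Among all genes with at least 1 kb covered in either list, 36.1% had a lower D-EPSC ratio than Kat6b and 33.6% a lower L-EPSC ratio. The L-EPSC list also covered fewer Kat6b bases than the D-EPSC list, at a log2 ratio of −1.01. Among all genes ordered by the share of the window that was acetylated, Kat6b stood at position 2162 in ESCs, 3170 in the D-EPSC list and 4409 in the L-EPSC list.

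The start site of Kat6b kept its acetylation while most of the gene body did not. Within 1 kb of the start site, H3K27ac covered 1162, 1943 and 1423 bp in the respective ESC, D-EPSC and L-EPSC lists. Inside the gene span it covered 48392, 14166 and 4985 bp. When the peaks of the 3 states were joined, the Kat6b window held 40 acetylated regions, of which 28 were in ESCs only, 4 in all 3 states, 5 in ESCs and D-EPSCs, 2 in ESCs and L-EPSCs and 1 in L-EPSCs only. No region was shared by both EPSC states and missing from ESCs. Of the 53582 acetylated regions in all gene windows, 55.3% were in ESCs only and 21.7% in all 3 states. Another 2.19% were in both EPSC states and not in ESCs. The 4 regions common to all states included the start site and a block between 32596 and 41867 bp into the gene, which ESCs covered over 9.272 kb, where D-EPSCs kept 6.425 kb and L-EPSCs kept 2.443 kb in their widest peaks.

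H3K4me1 stayed along Kat6b in all 3 states. It covered 142.0 kb in ESCs, 109.2 kb in the D-EPSC list and 102.1 kb in the L-EPSC list, which placed Kat6b at positions 363, 981 and 759 among all genes by the share of the window. The widest single peak was 89.5, 20.41 and 13.46 kb in the respective ESC, D-EPSC and L-EPSC lists, so the EPSC lists broke the long domain into pieces while covering most of it. Of the H3K4me1 bases, 37.3% were also acetylated in ESCs, against 12.9% and 6.6% in the D-EPSC and L-EPSC lists. All 28 regions acetylated in ESCs only carried H3K4me1 in at least 1 state, and 22 of them (78.6%) carried it in all 3, beside 53.8% of the 29629 such regions in all gene windows.

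**Figure D1:**
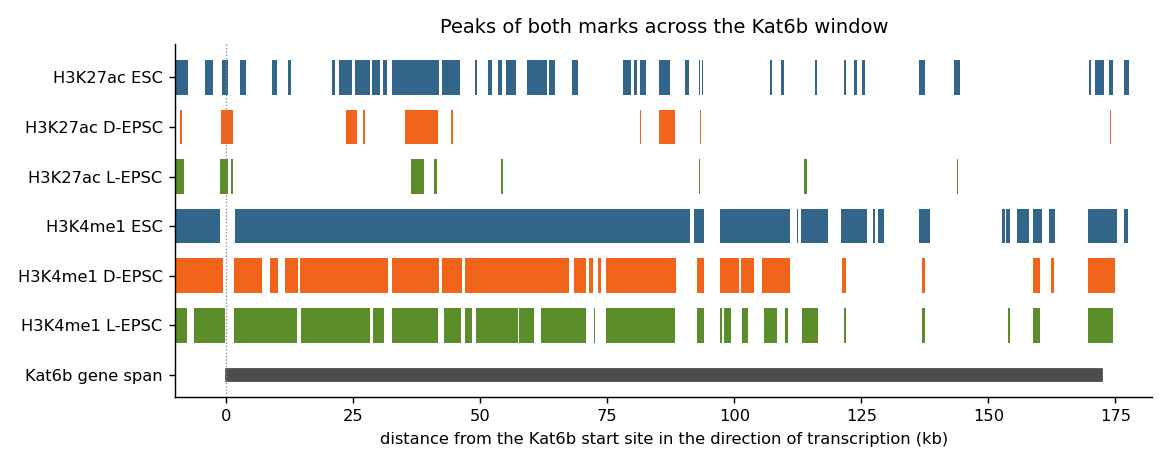
Peaks of H3K27ac and H3K4me1 across the Kat6b window in each state, with the distance from the start site in kb on the horizontal axis and 1 row of bars per list. The H3K27ac row of ESCs has 40 peaks and those of D-EPSCs and L-EPSCs have 10 and 9, while the H3K4me1 rows remain filled over the first part of the gene in all 3 states.

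The widest regions acetylated in ESCs only at Kat6b were a 3564-bp region at chr14:22378247-22381810 and a 1936-bp region at chr14:22374139-22376074, both in introns, and a 1950-bp region at chr14:22489964-22491913 over the 3′ end of the gene with its UTR. The middles of an intronic pair are shown because they are the sequence from which the acetylation mark was missing in both EPSC lists. The first is the middle of the widest region (chr14:22379879-22380178) and the second is the only middle that held the Esrrb and Nr5a2 element (chr14:22350099-22350398, in capitals on the minus strand). Both are 300 bases of the plus strand of mm9.
Kat6b widest ESC-only region, middle: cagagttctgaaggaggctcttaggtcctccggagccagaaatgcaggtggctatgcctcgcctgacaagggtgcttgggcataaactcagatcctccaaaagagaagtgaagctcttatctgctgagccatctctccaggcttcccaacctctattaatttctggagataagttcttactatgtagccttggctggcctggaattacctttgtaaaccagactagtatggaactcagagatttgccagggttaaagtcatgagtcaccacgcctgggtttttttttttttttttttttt
Kat6b ESC-only region with the element, middle: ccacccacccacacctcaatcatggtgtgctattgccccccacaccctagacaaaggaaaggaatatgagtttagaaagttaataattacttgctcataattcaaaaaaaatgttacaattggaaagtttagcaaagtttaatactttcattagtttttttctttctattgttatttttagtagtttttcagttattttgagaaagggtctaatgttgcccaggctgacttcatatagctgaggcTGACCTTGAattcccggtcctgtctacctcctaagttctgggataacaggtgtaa

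Esrrb and Nr5a2 are nuclear receptors of the naive pluripotency network that recognize this element. It was present in 1 of 26 middles of the Kat6b regions of at least 300 bp that were acetylated in ESCs only, beside 497 of 32481 such middles in the genome (1.53%). The whole of these 26 regions held 3 matches to it, and the 4 regions acetylated in all states held 1. In the genome's regions acetylated in all 3 states, 1.46% of 14953 middles held it. A match gives only the letters and was not read as a bound site.

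Kat6a (ENSMUSG00000031540.7), the closest relative of Kat6b, lies at chr8:23970007-24053731 on the plus strand and showed the same arrangement on a smaller scale. Of its 103.7-kb window, H3K27ac covered 15.75 kb in ESCs, 5.023 kb in the D-EPSC list and 4.895 kb in the L-EPSC list, and both EPSC values were over 3-fold lower, with log2 ratios of −1.65 and −1.69. The whole H3K27ac lists stood at −1.27 and −1.65 to that of ESCs. Of the genes compared, 40.1% had a lower D-EPSC ratio than Kat6a and 59.4% a lower L-EPSC ratio. Of its 15 acetylated regions, 12 were in ESCs only, and 11 of those lay in introns. The start site and part of one joined region of 7229 bp, between 37643 and 44871 bp into the gene, were acetylated in all 3 states. In that region ESCs had a peak of 5.59 kb, D-EPSCs one of 4.082 kb and L-EPSCs peaks of 1.684 and 1.687 kb. H3K4me1 covered 48.89, 40.40 and 27.30 kb.

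Ep300 and Crebbp, the paired H3K27 acetyltransferases, differed from each other at the start site. Ep300 (ENSMUSG00000055024.5) lies at chr15:81415781-81482507 on the plus strand, and H3K27ac covered 4.968, 2.979 and 2.313 kb of its window in ESCs, D-EPSCs and L-EPSCs. Around its start site 2001, 2001 and 1954 of 2001 bp were acetylated, and in L-EPSCs the single promoter peak of 2.313 kb was all that the window held. Crebbp (ENSMUSG00000022521.7), at chr16:4084048-4213404 on the minus strand, was covered over 11.14, 5.334 and 1.641 kb in the respective ESC, D-EPSC and L-EPSC lists. No H3K27ac peak lay within 1 kb of its start site in ESCs or L-EPSCs, and D-EPSCs had a 537-bp peak that ended 422 bp before it. Of the 1.641 kb in L-EPSCs, 1137 bp lay beyond the 3′ end at the start of the neighboring gene Trap1, a mitochondrial chaperone. They lay in the only region of the 9 windows that was acetylated in both EPSC states and not in ESCs (chr16:4077425-4078771). It was 1 of 110 acetylated regions in these windows (0.909%), and 2.19% of the regions in all gene windows were of this class.

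These were also the genes at which H3K4me1 was lowest in L-EPSCs relative to ESCs. At Ep300 it covered 14.75 kb in ESCs, 14.60 kb in the D-EPSC list and 5.207 kb in the L-EPSC list, a log2 ratio of −1.50 for L-EPSCs over ESCs. The difference lay inside the gene, where 11385, 11761 and 2793 bp were covered. At Crebbp H3K4me1 covered 44.31, 33.47 and 17.5 kb, a log2 ratio of −1.34 for L-EPSCs over ESCs. Among the 17464 genes compared for H3K4me1 in these states, 3.03% had a lower ratio than Ep300 and 4.54% a lower ratio than Crebbp.

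Kat2a and Kat2b, the paralogs GCN5 and PCAF, differed in the share of the window that was acetylated. Kat2b (ENSMUSG00000000708.8), at chr17:53706186-53812045 on the plus strand, was acetylated over 65.20, 32.66 and 23.24 kb in the respective ESC, D-EPSC and L-EPSC lists. This was 51.8%, 25.95% and 18.47% of its window, the highest share of the 9 genes in every state. By this share it stood at positions 545, 433 and 647 among all genes, so its place in the order was held although its bases were fewer. The 10 kb before its start site were acetylated over 10000, 10000 and 8185 bp, and the gene span over 48269, 21714 and 14797 bp. In ESCs 90.4% of its H3K4me1 bases were also acetylated, and in D-EPSCs and L-EPSCs the shares were 51.1% and 44.7%. Kat2a (ENSMUSG00000020918.7), at chr11:100566060-100573779 on the minus strand, had 7.752, 2.472 and 1.766 kb. Its only region found in ESCs alone was 5989 bp over the neighbor Rab5c, an endosomal GTPase, while the 2001 bp around the Kat2a start site were acetylated over 1254, 1398 and 1296 bp.

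Hdac1 (ENSMUSG00000028800.9), at chr4:129193348-129219957 on the minus strand, had the lowest D-EPSC ratio of the 9 genes. H3K27ac covered 13.49 kb in ESCs, 2.255 kb in the D-EPSC list and 2.690 kb in the L-EPSC list, log2 ratios of −2.58 and −2.33. Its window was the only one of the 9 with more acetylated bases in L-EPSCs than in D-EPSCs (log2 ratio 0.25). The excess lay in the 10 kb before the start site, with 1444 bp in L-EPSCs and 761 bp in D-EPSCs. In the same order, the Hdac1 span had 343 and 450 bp and the 10 kb beyond the 3′ end had 903 and 1044 bp. Of the ESC bases, 7687 lay beyond the 3′ end of the gene, next to the start site of Marcksl1, an actin-binding protein, and 3026 lay in the Hdac1 span. The start site itself was acetylated in all 3 states, over 867, 821 and 696 bp of the 2001 bp around it. Hdac2 (ENSMUSG00000019777.9), at chr10:36694350-36721695 on the plus strand, had 7.185, 2.330 and 1.717 kb, with 894, 1097 and 1036 bp around the start site. Its 4 regions acetylated in ESCs only were an intronic pair of 1078 and 1834 bp and another pair of 230 bp each, and a 2919-bp region at the 3′ end of the gene was shared in part by all 3 states.

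Hdac3 (ENSMUSG00000024454.8), at chr18:38095498-38114642 on the minus strand, had no H3K27ac within 1 kb of its annotated start site in any state. Its window held 9.077, 6.128 and 3.073 kb in the respective ESC, D-EPSC and L-EPSC lists, but 7323, 5222 and 3073 bp of this lay beyond the 3′ end over Diap1, a formin that assembles actin. The Hdac3 span itself was acetylated over 1754 bp in ESCs, 906 bp in the D-EPSC list and 0 bp in the L-EPSC list. H3K4me1 around the start site went the other way, with 253, 1418 and 2001 of the 2001 bp covered in ESCs, D-EPSCs and L-EPSCs. The start site of Rell2 lies 571 bp before that of Hdac3, so these bases belong to both promoters.

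**Figure D2:**
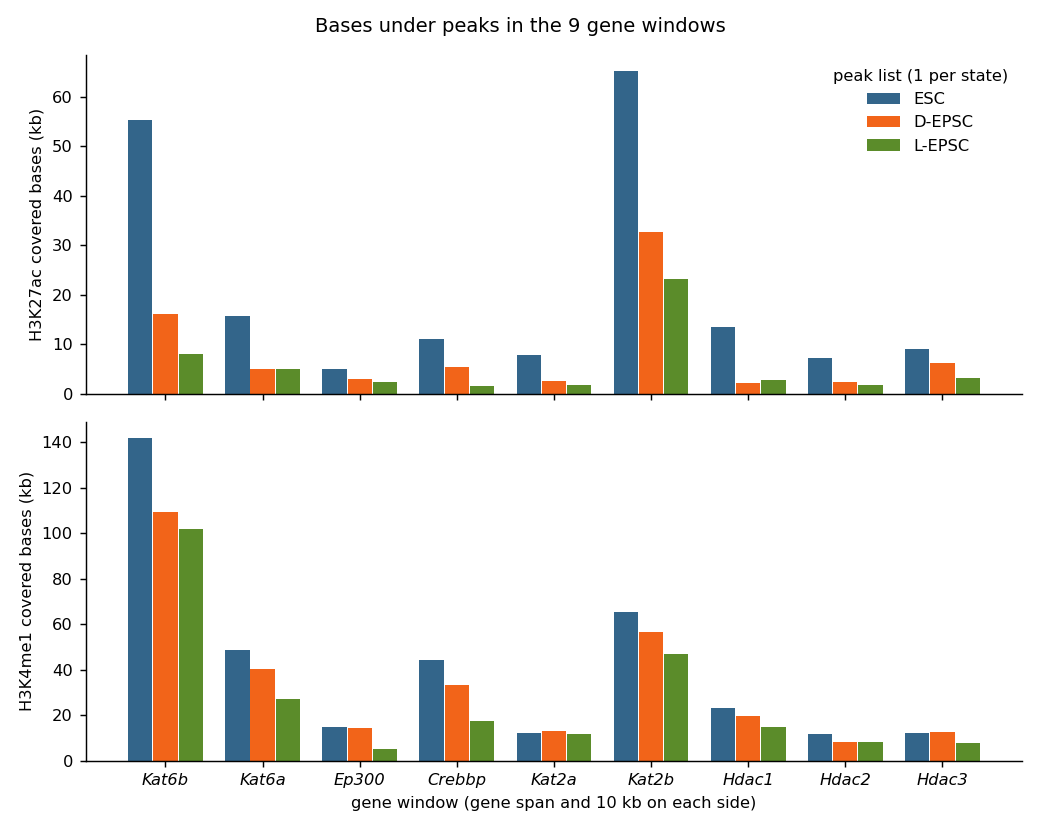
Bases under H3K27ac peaks (top) and H3K4me1 peaks (bottom) in kb for each of the 9 gene windows, with 1 bar per peak list and no error bars because each state has 1 list. Windows run from 27.7 to 192.3 kb, so bars compare states within a gene; every gene has its highest H3K27ac bar in ESCs, which for Ep300, Crebbp, Kat2b and Hdac3 does not hold once bases are divided by the list totals.

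Set beside all genes, the lower acetylation of the 9 genes was near what the lists showed everywhere. A gene was compared where either list covered at least 1 kb of its window, and was called at 2-fold. In D-EPSCs 6 of the 9 genes had H3K27ac over at most 1/2 the ESC bases, and 61.0% of 12059 genes did. In L-EPSCs all 9 did, beside 79.0% of 11684 genes. These counts are of windows, which also hold bases over neighboring genes. At Kat2a the gene span itself was acetylated over 254, 398 and 354 bp in the respective ESC, D-EPSC and L-EPSC lists. Between the EPSC states, 2 of 9 (Kat6b and Crebbp) were called lower in L-EPSCs than in D-EPSCs, beside 33.8% of all genes. No member was called higher in any of these comparisons, where 4.69%, 1.69% and 5.84% of genes were. The median log2 ratio of the 9 genes was −1.63 in D-EPSCs and −2.07 in L-EPSCs, against −1.33 and −2.02 over all genes. Kat6b, chosen from the same marks, is among the 9 in these counts and medians.

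For H3K4me1, 0 of 9 genes were called lower in D-EPSCs than in ESCs (5.53% of all genes), 2 of 9 in L-EPSCs than in ESCs (11.2%), and 1 of 9, Ep300, in L-EPSCs than in D-EPSCs (4.02%). None was called higher, where the shares of all genes were 8.95%, 9.26% and 3.05%. The medians of the 9 genes were −0.24 in D-EPSCs and −0.61 in L-EPSCs, against −0.10 and −0.29 over all genes. The calls were close to the fold at some genes. Crebbp was just past it for H3K27ac in D-EPSCs at −1.06, and Kat2b was just short of it at −0.997.

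The direction at single genes depended on whether the length of the list was taken into account. Each covered length was also divided by the total of its list. For H3K27ac in D-EPSCs, 5 of the 9 genes were then lower than in ESCs, from −1.31 at Hdac1, and 4 were higher (Ep300, Crebbp, Kat2b and Hdac3, up to 0.71). In L-EPSCs 6 were lower, with Kat6b at −1.15 and Crebbp at −1.12, and 3 were higher (Ep300, Kat2b and Hdac3, up to 0.54). Only Hdac1 in D-EPSCs and Kat6b and Crebbp in L-EPSCs remained 2-fold below ESCs on this scale. For H3K4me1 the division left 5 genes lower and 4 higher in D-EPSCs and 8 lower and 1 higher, Kat2a, in L-EPSCs, where Ep300 stood at −1.15 and Crebbp at −0.99.

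**Figure D3:**
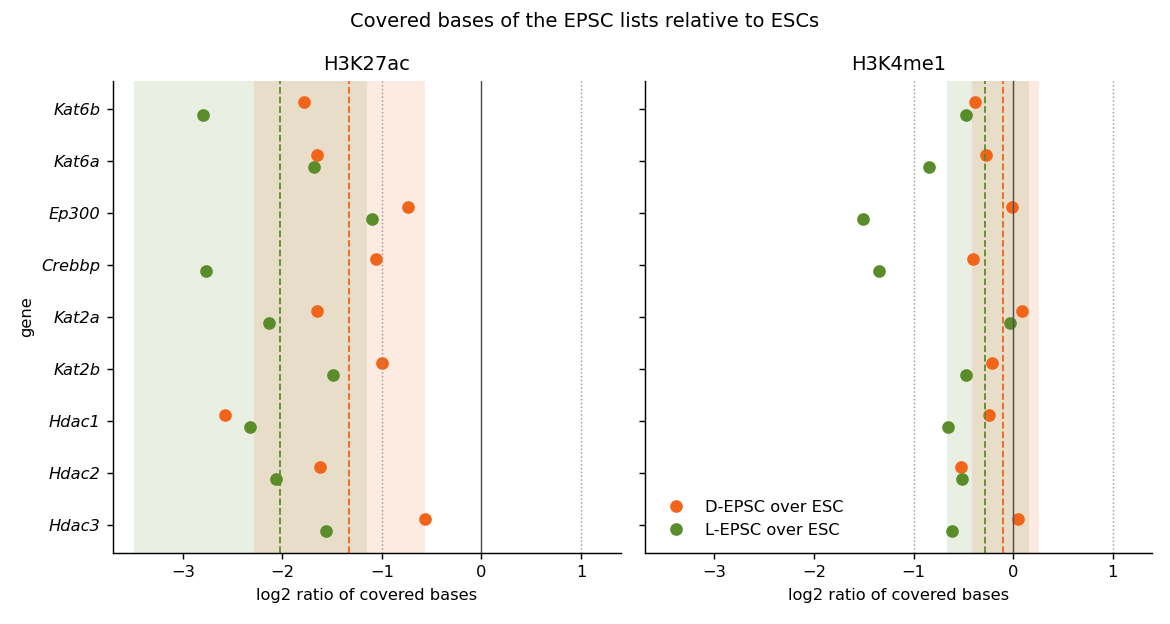
Log2 ratio of covered bases over ESCs for the 9 genes, in D-EPSCs (orange) and L-EPSCs (green), for H3K27ac (left) and H3K4me1 (right), with the 2-fold limits dotted. Dashed lines and shaded bands give the median and the middle of the distribution, from the lower to the upper quartile, over all genes compared; 16 of the 18 H3K27ac points lie inside the band of their state.

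Acetylation at the start sites was kept to a larger share than in the rest of the windows. H3K27ac lay within 1 kb of the start site at 7 of 9 genes in ESCs (35.7% of all genes), 8 of 9 in D-EPSCs (35.3%) and again 7 of 9 in L-EPSCs (28.8%). The exceptions were Hdac3 in all states and Crebbp in ESCs and L-EPSCs. The first base of the gene was itself acetylated at the same 7 genes in each state, beside 21.5%, 24.4% and 17.4% of all genes. Summed over the 9 genes, acetylation within 1 kb of the start site covered 9.415, 10.74 and 9.289 kb in the respective ESC, D-EPSC and L-EPSC lists, so D-EPSCs had 114% and L-EPSCs 98.7% of the ESC bases. Beyond 1 kb it covered 180.4, 64.46 and 39.99 kb, which left 35.7% and 22.2%. Over all genes the same shares were 90.4% and 65.1% within 1 kb and 35.8% and 26.6% beyond it, with bases in overlapping windows counted once for each gene. Of the bases of the 9 genes beyond 1 kb, Kat6b, chosen from the same marks, supplied 54.12, 14.07 and 6.519 kb. Sums without Kat6b were not computed, so the shares of the 9 genes carry that choice.

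H3K4me1 came closer to the start sites in the EPSC lists. It lay within 1 kb of the start site at 6 of 9 genes in ESCs, all but Kat6b, Kat6a and Hdac1, and at 9 of 9 in both EPSC lists, beside 57.5%, 67.1% and 68.0% of all genes. The first base itself was covered at 0 of 9 genes in ESCs and D-EPSCs and at 3 in L-EPSCs (Kat2a, Kat2b and Hdac3), beside 11.4%, 26.2% and 31.8% of all genes. At Kat6b the stretch without H3K4me1 around the first base was 2993 bp in ESCs, 2175 bp in the D-EPSC list and 1878 bp in the L-EPSC list. At Kat6a it was 2157, 1756 and 1533 bp, and at Crebbp 2127, 1646 and 1396 bp. The gap was narrower in D-EPSCs than in ESCs at 9 of 9 genes and narrower in L-EPSCs at 9 of 9, and the same held for 93.8% and 93.6% of the 10710 genes with a gap of at most 10 kb in ESCs. From D-EPSCs to L-EPSCs it was narrower at 9 of 9, beside 81.8% of 8988 genes. The median gap of the 9 genes went from 2157 bp in ESCs to 1396 bp in L-EPSCs, and that of all those genes from 1750 to 813 bp.

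**Figure D4:**
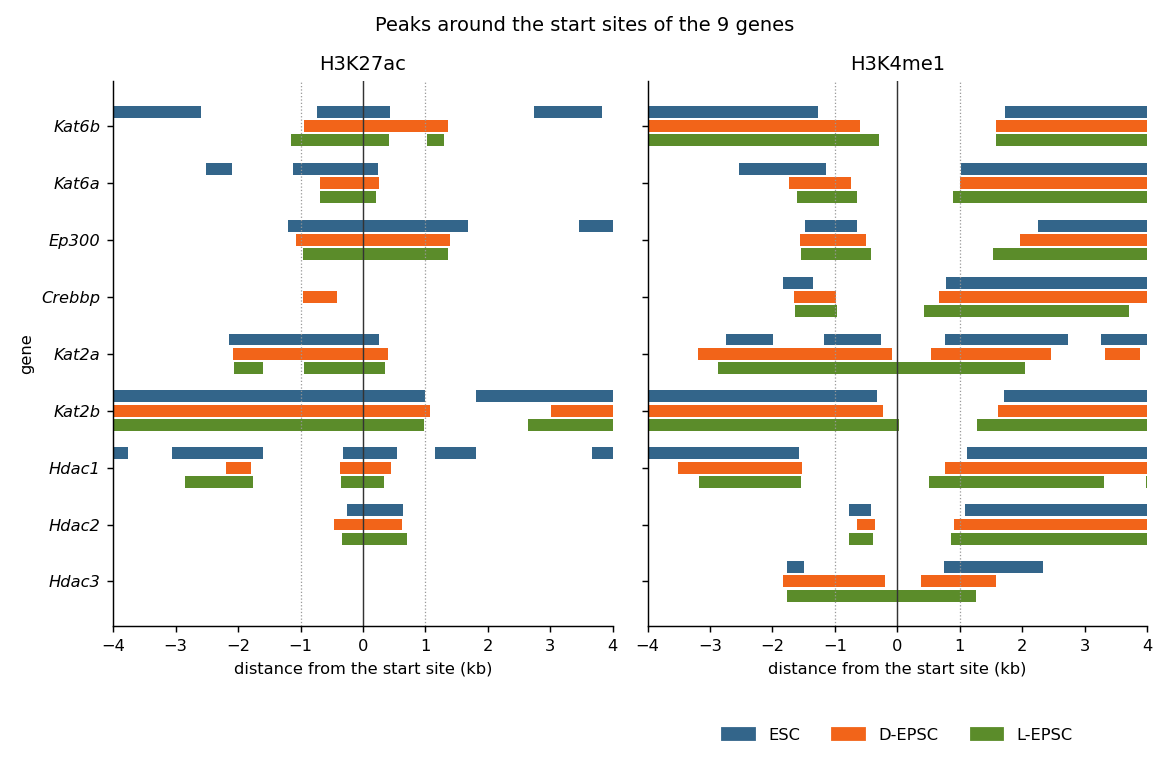
Peaks within 4 kb of the start site of each gene, with H3K27ac on the left and H3K4me1 on the right and 1 bar row per state; distances in kb run in the direction of transcription, and dotted lines mark 1 kb. H3K27ac bars cross the start site in all states at 7 genes, and the H3K4me1 gap around it is widest in ESCs.

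**Figure D5:**
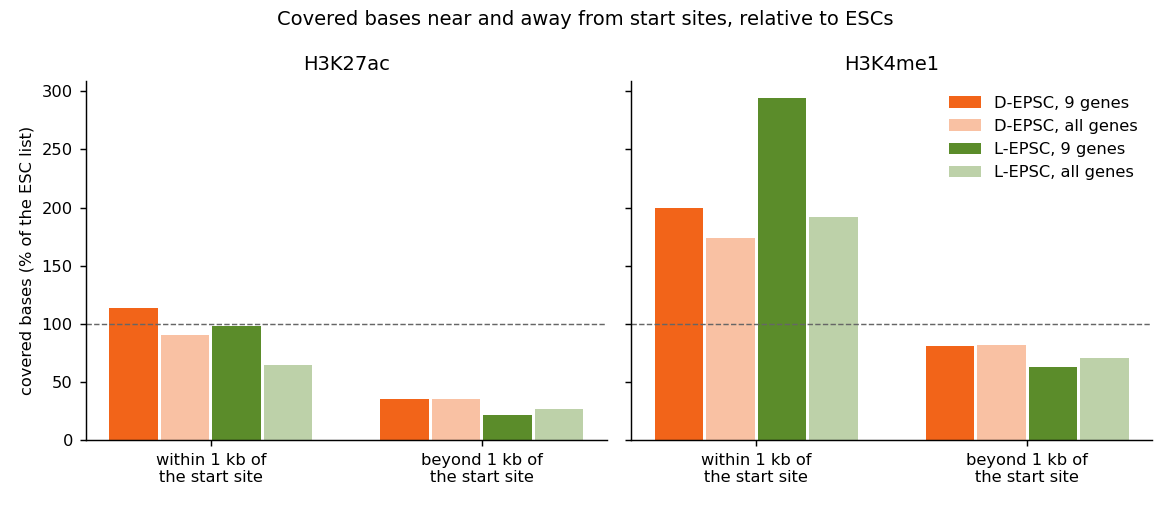
Covered bases within 1 kb of the start site and in the rest of the window, as a percentage of the ESC list, summed over the 9 genes (solid) and over all protein-coding genes (pale). For H3K27ac the 9 genes, Kat6b included, stand at 114% and 98.7% near the start site and at 35.7% and 22.2% beyond it.

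Over all 9 windows the joined lists held 110 acetylated regions. Of these, 68 (61.8%) were in ESCs only, beside 55.3% of the 53582 acetylated regions in gene windows, and 22 were in all 3 states. Another 12 were in ESCs and D-EPSCs, 2 in ESCs and L-EPSCs, 2 in D-EPSCs only, 3 in L-EPSCs only and 1 in both EPSC states. In all gene windows these classes held 9.92%, 3.61%, 5.28%, 2.00% and 2.19% in the same order, and 21.7% were in all 3 states. H3K4me1 lay on 41 of the 68 ESC-only regions in all 3 states (60.3%), and 3 had none in any state (4.41%), beside 53.8% and 12.8% of such regions in all gene windows. Kat6b, chosen from the same marks, held 40 of the 110 regions and supplied 28 of the 68 and 22 of the 41. The ESC-only share of 61.8% thus carries that choice and was not computed without Kat6b. Of the ESC-only regions of the other 8 genes, 19 of 40 (47.5%) had H3K4me1 in all 3 states. Of the H3K4me1 bases in the 9 windows, Kat6b included, 45.3% were acetylated in ESCs and 19.6% and 16.1% in the D-EPSC and L-EPSC lists. Over all gene windows the shares were 36%, 15.9% and 14.2%.

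The other genes of the acetylation machinery, 53 genes in 6 lists taken from general knowledge of the complexes, also covered fewer acetylated bases in the EPSC lists at most members. Of the 46 with at least 1 kb of H3K27ac in ESCs or the EPSC state, 31 (67.4%) were called lower in D-EPSCs and 41 (89.1%) in L-EPSCs, beside 61.0% and 79.0% of all genes, and 0 were called higher, with medians of −1.29 and −2.14. For H3K4me1, 6 of 53 (11.3%) were called lower in D-EPSCs and 11 (20.8%) in L-EPSCs, beside 5.53% and 11.2% of all genes. The only gene called higher was Hdac9, a class IIa deacetylase named here after its values were seen. It had 2.257, 4.636 and 6.395 kb of H3K4me1 in the respective ESC, D-EPSC and L-EPSC lists. Of all genes compared for H3K4me1, 8.95% were called higher in D-EPSCs and 9.26% in L-EPSCs.

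Among the other acetyltransferases, 5 of 8 had H3K27ac called lower in D-EPSCs, and all 8 in L-EPSCs. Of all genes compared, 61.0% and 79.0% were called lower in these states, which is the background for each list here. The lowest D-EPSC ratio was at Kat14, with 12.96, 3.924 and 1.935 kb in ESCs, D-EPSCs and L-EPSCs, and the highest was at Kat5, also called Tip60, with 2.251, 1.74 and 0.873 kb. Of the 5 partners of Kat6a and Kat6b, 3 were called lower in D-EPSCs, and 4 were in L-EPSCs. The subunit Meaf6 had 14.14, 1.057 and 0.565 kb, a log2 ratio of −3.74 in D-EPSCs, and the scaffold Brpf1 had 3.494, 3.812 and 2.389 kb, a log2 ratio of 0.13. Of the 5 compared partners of Kat2a and Kat2b, 4 were called lower in each EPSC state. Among those with at least 1 kb in both ESCs and D-EPSCs, Tada2a had the lowest D-EPSC ratio and Supt3 the highest. The adaptor Tada2a had 5.209, 1.077 and 0.302 kb and Supt3 had 2.328, 2.135 and 1.883 kb. Partners with fewer D-EPSC bases, some with lower ratios, were left out by this limit.

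Among the other deacetylases, 6 of the 10 compared were called lower in D-EPSCs, and 9 were in L-EPSCs. The shares of all genes, 61.0% and 79.0%, stand beside this count and those that follow. Among those with at least 1 kb in both ESCs and D-EPSCs, Sirt6 had the lowest D-EPSC ratio and Sirt5 the highest. The chromatin-bound sirtuin Sirt6 had 17.35, 4.896 and 3.94 kb of H3K27ac, and the mitochondrial Sirt5 had 1.357, 1.516 and 1.129 kb. A lower ratio among deacetylases with fewer D-EPSC bases was left out by this limit. Corepressor subunits were called lower at 11 of 15 in D-EPSCs and 14 of 15 in L-EPSCs. Among those with at least 1 kb in both ESCs and D-EPSCs, the histone-binding pair Rbbp4 and Rbbp7 had the lowest and highest D-EPSC ratios, with 14.61, 1.904 and 1.588 kb at Rbbp4 and 2.224, 1.794 and 1.827 kb at Rbbp7. The acetyl-lysine readers were called lower at 2 of 3 in both EPSC states, and the highest D-EPSC ratio among them was at Brd2, with 6.583, 6.208 and 4.864 kb.

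The genes most like Kat6b in the share of the window covered, by Euclidean distance over the 6 lists, were Sdc4 at 7.58 percentage points, 9330160F10Rik at 7.99, Gltp at 8.29, Arrdc2 at 8.75 and Plekha7 at 9.42. Kat6b itself was covered by H3K27ac over 28.75%, 8.331% and 4.13% of its window in ESCs, D-EPSCs and L-EPSCs and by H3K4me1 over 73.87%, 56.79% and 53.11%. Sdc4, a cell surface proteoglycan, was covered over 28.93%, 8.829% and 2.566% and over 71.13%, 60.37% and 47.24%. Of the 5, only Plekha7 (204.9 kb) had a window as long as that of Kat6b, and the others were between 22.77 and 41.58 kb.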

How the data were processed

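Per the labels and the study's methods, the authors trimmed reads with Trim Galore 0.6.3, checked them with FastQC 0.10.1, aligned them to mm9 with Bowtie2 2.3.5, sorted them with SAMtools 1.10 and called peaks with MACS in broad mode against input. The authors deposited 1 list per mark and state with peak positions and no other values, from 2 samples each. Whether reads or peaks were pooled, and the threshold, are not given in the sources used here, and 0-based starts were assumed.

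From these positions, covered bases and peaks were computed in Python 3.11.15 with numpy 2.4.6 over gene spans with 10 kb on each side, on chromosomes 1 to 19 and X. Start sites are the 5′ ends of genes. A gene was called at 2-fold where either list covered 1 kb. Interval arithmetic was tested on simulated data. The members and lists were chosen with earlier results of these data known. Named genes were the 9 members, per list the lowest and highest D-EPSC ratio among genes with 1 kb in both ESCs and D-EPSCs, the 5 genes nearest to Kat6b, and the widest ESC-only regions. The comparisons of gaps around start sites and of H3K4me1 on ESC-only regions were chosen after seeing the data. The promoter of 1 member is not reported here. Window, width, fold, list length and scale were varied.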

Additional observations from a re-analysis of the deposited data

Results flagged for a closer look

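H3K4me1 at 2 genes lay on opposite sides of the ESC value in the EPSC states. At Kat2a the log2 ratio of covered bases was 0.091 in D-EPSCs and −0.034 in L-EPSCs, and at Hdac3 it was 0.049 and −0.61. After division by the list totals, Kat2a stood at 0.329 and 0.319, on the same side. Hdac3 then stood at 0.287 and −0.260, still on opposite sides. Each ratio rests on 1 list per state, and the difference between the EPSC states was not tested.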

How the results depend on the processing

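No paired analysis was possible because each state and mark has 1 deposited list. Of 150 recomputed counts of members, 126 stayed within 1.5 times the value given. Trimming each list to its widest peaks, until all covered as many bases as the smallest, left 2 genes with at most 1/2 the H3K27ac bases in D-EPSCs against ESCs, 4 in L-EPSCs against ESCs and 0 in L-EPSCs against D-EPSCs, and put 3, 3 and 1 genes 2-fold or more above. The 3 genes above ESCs were Ep300, Crebbp and Hdac2, which had no ESC bases left, so their folds have no value. H3K27ac start sites were then 1 in ESCs and 5 in D-EPSCs. This setting keeps 5.79% of the ESC H3K27ac peaks, the widest ones. Division by list totals gave 1, 2 and 1 for H3K27ac and, for H3K4me1 in L-EPSCs against ESCs, 1. Equal numbers of peaks gave 1 for H3K27ac in L-EPSCs against D-EPSCs, where counting peaks in place of bases put 2 genes 2-fold or more above. For H3K4me1 a fold of 1.5 gave 5 in L-EPSCs against ESCs and 3 against D-EPSCs. That last count was 2 without flanks, 0 with 50 kb and 2 by peak number. Start sites with H3K4me1 were 3 in ESCs and 4 in D-EPSCs within 500 bp, and 0, 0 and 3 at the first base alone. Of 473 single-gene ratios, 367 moved by at most 1.5-fold and kept their call. Signs of called H3K27ac ratios turned with the widest peaks at Kat6b in D-EPSCs (0.59), and after division at Crebbp in D-EPSCs (0.21) and at Ep300 (0.54), Kat2b (0.16) and Hdac3 (0.084) in L-EPSCs. The causes were not tested. Another 7 ratios had no value because 1 state had no bases left. Peak positions carry no depth, so a weak mark under the peak threshold and an absent one look alike.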
